A study of Mus musculus with 2 samples.

Results

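The 7 Sp genes described here are *Sp1*, *Sp2*, *Sp3*, *Sp4*, *Sp6*, *Sp7* and *Sp8*, chosen by gene symbol as transcription factors that bind the same GC boxes as KLF9. They were 7 of 23314 gene symbols listed in the files of both libraries, of which 18737 had a value above 0 in at least 1 library. The data are RNA-seq values from 1 control library and 1 *Klf9*-OE library of mouse primordial germ cells (PGCs), sorted at E13.5 from both sexes of embryos of MCH females and Oct4-deltaPE-GFP males by their GFP signal. Both cultures were infected with a lentivirus at an MOI of 5 and kept for 1 day on gelatin-coated plates. The *Klf9*-OE cells received the *Klf9* coding region in a CSII-EF vector, and the control cells received a control vector without it, whose insert is not specified for these libraries. On whether the medium held bFGF the sources differ, since the labels say that it did and the paper that it did not, for both libraries alike. Each condition had 1 library, so no difference given here has a replicate check and no p-value is given. The 95% intervals are those that Cufflinks deposited with each value, and they cover the estimation within a library only.

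Sp proteins bind DNA through C2H2 zinc fingers near the C-terminus, and they recognise GC-rich boxes and related CACCC boxes in promoters and enhancers. The Klf proteins, KLF9 among them, have closely related fingers, so members of both families can occupy the same box. Sp1 to Sp4 have glutamine-rich activation domains, and *Sp1* and *Sp3* are active in nearly all cells, where many housekeeping promoters use them. *Sp6*, *Sp7* and *Sp8* are best known from embryonic tissues outside the germ line, namely tooth and skin epithelium, bone, and limb bud ectoderm and brain. The files hold RNA levels. Binding to GC boxes, and competition for them, was not measured.

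The GC box itself can be read in the promoters of some of these genes. The DNA of 250 bases before the RNA start is shown for *Sp1*, the member with the highest level, and for *Sp4* and *Sp8*, the members whose intervals lay apart between the libraries (RefSeq, GRCm38.p6). GENCODE M21 starts the *Sp1* gene at base 102406143, so part of the printed *Sp1* bases lies inside that gene model. Capitals mark each match to GGGCGG on the printed strand or to its complement CCGCCC. The *Sp1* sequence is chr15:102406066-102406315 on the forward strand, the *Sp4* sequence is chr12:118301441-118301690 on the reverse strand, and the *Sp8* sequence is chr12:118846079-118846328 on the forward strand.
Sp1: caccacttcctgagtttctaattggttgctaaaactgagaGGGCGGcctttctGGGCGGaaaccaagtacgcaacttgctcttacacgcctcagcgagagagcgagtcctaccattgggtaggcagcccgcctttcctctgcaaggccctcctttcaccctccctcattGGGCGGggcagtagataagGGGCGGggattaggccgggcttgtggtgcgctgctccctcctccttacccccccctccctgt
Sp4: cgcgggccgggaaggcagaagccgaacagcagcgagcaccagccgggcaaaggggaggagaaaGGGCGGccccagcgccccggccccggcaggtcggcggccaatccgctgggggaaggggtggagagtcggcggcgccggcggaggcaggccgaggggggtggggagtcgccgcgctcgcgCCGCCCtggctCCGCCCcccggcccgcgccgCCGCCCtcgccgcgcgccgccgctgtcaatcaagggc
Sp8: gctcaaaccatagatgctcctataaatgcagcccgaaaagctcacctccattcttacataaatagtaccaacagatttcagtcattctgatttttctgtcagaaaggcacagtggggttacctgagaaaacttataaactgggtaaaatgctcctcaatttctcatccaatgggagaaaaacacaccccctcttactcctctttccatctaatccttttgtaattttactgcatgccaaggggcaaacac

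In the whole window of 300 bases, which runs from 250 bases before to 50 after the RNA start, *Sp4* had 5 matches to the GC box (4 of them in the printed bases), *Sp1* had 4, *Sp2* and *Sp3* had 2 each, and *Sp8* had 0. Of the 13574 promoters of this length that could be matched to genes above 0 in at least 1 library, 54.3% held at least 1 match, 31.8% held 2 or more and 17.4% held 3 or more. *Sp4* also had 2 matches to the CACCC box (GGGTGG or its complement CCACCC), and the windows of *Sp1*, *Sp2*, *Sp3* and *Sp8* had 0, against 36.1% of all promoters with at least 1. The motifs differ in the fourth base, so no stretch of 6 bases counts as both. A CACCC without a C before it, as in the printed *Sp1* and *Sp8* bases, was not counted. The GC content of the window was 78.7% for *Sp4*, 66.7% for *Sp3*, 61.7% for *Sp1*, 59.7% for *Sp2* and 43.0% for *Sp8*, beside a median of 58.7% over all promoters. Among the 5 members with a window, *Sp4* and *Sp3* thus lay furthest above the median, *Sp1* and *Sp2* lay nearer to it, and *Sp8* lay below it. The *Sp2* window was placed at an RNA start of 96977688, while GENCODE M21 extends this reverse-strand gene to 96982959. A match is a description of letters and not of a bound site. *Sp6* and *Sp7* had no entry in the promoter table.

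**Figure D1:**
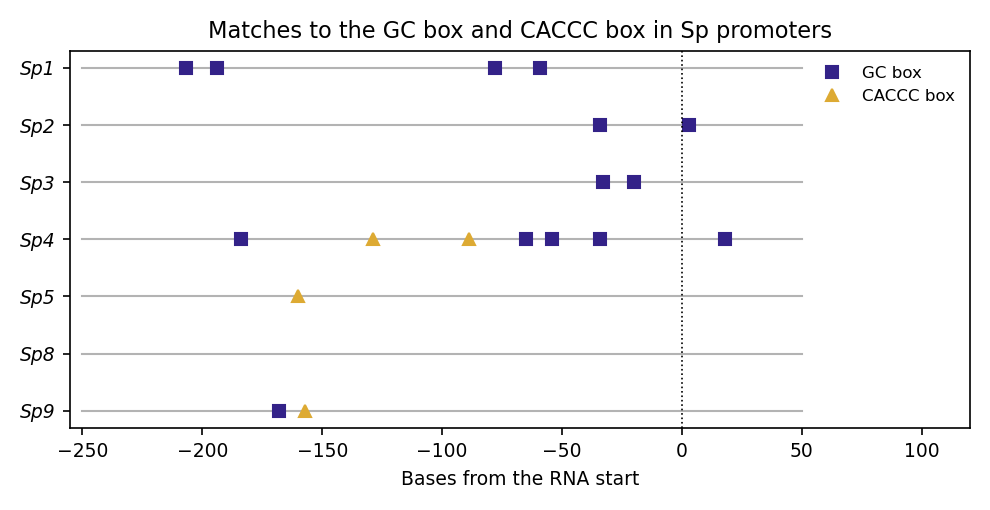
Matches to the GC box (squares) and the CACCC box (triangles) on either strand in the promoters of Sp genes with a window, plotted by distance in bases from the RNA start (dotted line). The members *Sp1*, *Sp2*, *Sp3* and *Sp4* have 2 to 5 GC boxes and *Sp8* has none, while *Sp5* and *Sp9*, which are not members, have 0 and 1.

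Among the 7 genes, *Sp1* had the highest level in both libraries, and the order of all members was the same in each library. From the highest to the lowest, the order was *Sp1*, *Sp3*, *Sp2*, *Sp4*, *Sp6*, *Sp8* and *Sp7*. In each library, the 95% intervals of neighbours in this order did not overlap. FPKM is a level per kilobase of transcript, so different genes can be set side by side. The level of *Sp1* was 1.31 times that of *Sp3* in control PGCs and 1.26 times in *Klf9*-OE PGCs. The step from *Sp4* to *Sp6* was 4.74-fold in control PGCs and 3.30-fold in *Klf9*-OE PGCs.

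*Sp1*, the founding member of the family, had a control FPKM of 25.4, with a 95% interval of 24.35 to 26.45, and a *Klf9*-OE FPKM of 25.4, with an interval of 24.8 to 26.0. The values of the libraries were the same to 3 digits, and the log2 fold change was 0.00055 (interval -0.069 to 0.070). All log2 fold changes are log2(FPKM + 0.1) in *Klf9*-OE minus control, with an interval made from the deposited bounds. On mm10, the *Sp1* locus spans bases 102406316 to 102436404 of chromosome 15 (forward strand), and its longest coding transcript in GENCODE M21 has 6 exons and 7754 nt. The control value includes an isoform assembled in that library, and the *Klf9*-OE value does not. The intervals imply 2348 reads in control PGCs and 6362 in *Klf9*-OE PGCs. The *Klf9*-OE number is 2.22 times the one that the FPKM and the overall depth give. The widths of the *Sp1* intervals are thus not comparable between the libraries, and the values may not be either.

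*Sp3*, which binds the same boxes and can activate or repress from them, had an FPKM of 19.4 in control PGCs (18.4 to 20.4) and 20.1 in *Klf9*-OE PGCs (19.1 to 21.1). The log2 fold change was 0.050 (-0.053 to 0.15), and the intervals of the libraries overlapped. *Sp3* lies on chromosome 2 from 72936432 to 72980446 on the reverse strand. The antisense gene *Sp3os* overlaps its 5′ end and was listed at 0 in both libraries, and reads of overlapping genes could not be assigned by strand, since the TruSeq v2 kit does not keep it.

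*Sp2*, a widely expressed member, had an FPKM of 15.5 in control PGCs (14.1 to 16.8) and 14.7 in *Klf9*-OE PGCs (13.4 to 15.95). The log2 fold change was -0.074 (-0.25 to 0.10), again with intervals that overlapped. *Sp2* lies on chromosome 11 from 96953338 to 96977740 on the reverse strand. The locus of *D030028A08Rik* overlaps that of *Sp2* over part of its length and had an FPKM of 2.73 in control PGCs (2.16 to 3.30) and 1.73 in *Klf9*-OE PGCs (1.43 to 2.03). Its intervals did not overlap, and the part of its reads in the *Sp2* values was not tested.

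*Sp4*, the member best known from neurons, had an FPKM of 8.36 in control PGCs (7.85 to 8.87) and 7.14 in *Klf9*-OE PGCs (6.71 to 7.57). It was 0.854 times as high in *Klf9*-OE PGCs, with intervals that did not overlap, and the log2 fold change was -0.22 (-0.35 to -0.10). The intervals imply about 1077 reads in control PGCs and 1101 in *Klf9*-OE PGCs, beside an overall 1.22 *Klf9*-OE reads per control read at equal FPKM (median over 2800 genes). *Sp4* lies on chromosome 12 from 118231686 to 118301440 on the reverse strand. The separation was narrow, since *Klf9*-OE intervals widened by the square root of 2 ended at 7.75, and FPKM rescaled to the same sum gave an upper bound of 7.90 and so an overlap. In bulk libraries such as these, fewer cells of a type cannot be told apart from less RNA per cell.

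*Sp6*, also called epiprofin, had an FPKM of 1.76 in control PGCs (1.48 to 2.05) and 2.16 in *Klf9*-OE PGCs (1.86 to 2.46). Its log2 fold change of 0.28 was the highest of the members, but the intervals of the libraries overlapped and that of the difference ran from -0.011 to 0.57. *Sp6* lies on chromosome 11 from 97013569 to 97024738 on the forward strand.

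*Sp8*, a factor of the limb bud ectoderm and the developing forebrain, had an FPKM of 0.302 in control PGCs (0.195 to 0.410) and 0.111 in *Klf9*-OE PGCs (0.0557 to 0.167). It was 0.369 times as high in *Klf9*-OE PGCs and its intervals did not overlap. The log2 fold change of -0.93 (-1.47 to -0.39) depended on the pseudocount, being -1.36 with 0.01 and -0.23 with 1. The intervals imply 31.6 reads in control PGCs and 16 in *Klf9*-OE PGCs, so the difference rests on few reads. With widened *Klf9*-OE intervals and FPKM rescaled to the same sum, the upper bound was 0.1985 and the intervals overlapped. The control value came from a locus with an isoform assembled in that library and the *Klf9*-OE value from the annotated transcript alone. *Sp8* lies on chromosome 12 from 118846329 to 118852578 on the forward strand.

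*Sp7*, also called osterix and required for bone formation, had an FPKM of 0.0175 in control PGCs (0 to 0.0524), behind which the interval implies 1.00 read. In *Klf9*-OE PGCs it was listed at 0 with bounds of 0. No fold is given, and these values do not separate *Sp7* from no expression. *Sp7* lies on chromosome 15 from 102357177 to 102366271 on the reverse strand.

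**Figure D2:**
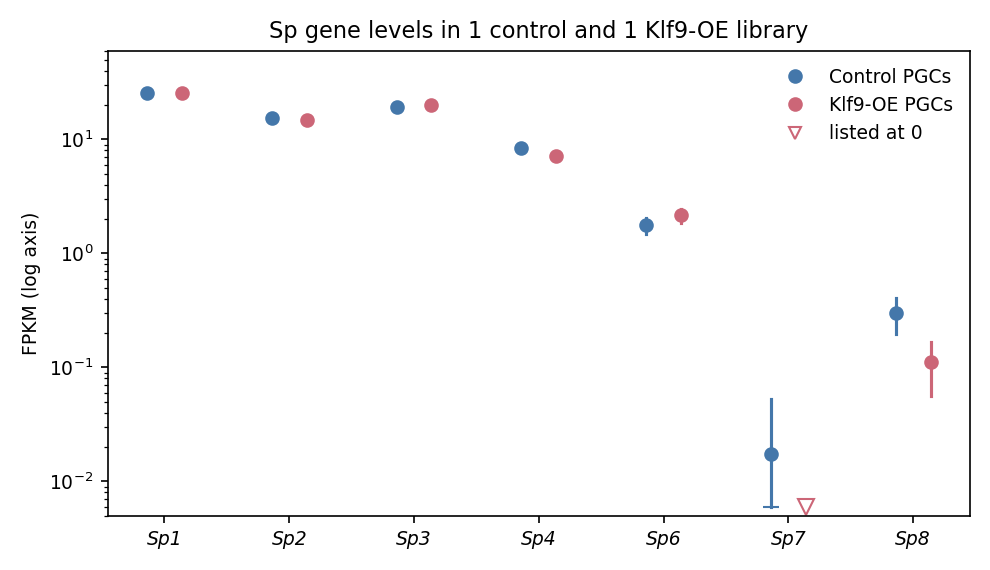
Level of the 7 Sp genes in FPKM on a log axis, in the control library (blue) and the *Klf9*-OE library (red). Lines are the deposited 95% intervals and the open triangle marks a value listed at 0. *Sp1* sits at 25.4 in both libraries, and *Sp4* and *Sp8* are the genes whose intervals do not overlap.

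By intervals that did not overlap, 0 of the 7 members were higher in *Klf9*-OE PGCs and 2 of 7, *Sp4* and *Sp8*, were lower. Over all genes above 0 in at least 1 library, 11.2% were higher and 14.4% were lower by the same rule, and among genes that reached an FPKM of 1 in either library the shares were 14.8% higher and 20.2% lower. These shares come to about 1 of 7 genes in each direction, so counts of 0 and 2 set the members apart from other genes in neither. The 4 members with a mean FPKM of 5 to 30 were *Sp1* to *Sp4*, and 1 of them had intervals apart, beside 35.7% of all genes in that range. For genes with a mean FPKM of 0.1 to 0.5, where *Sp8* lies, 3.2% were lower with intervals apart. None of the 7 members differed by 2-fold on the log2(FPKM + 0.1) scale. The shares over all genes were 4.52% higher and 4% lower, and with an FPKM of at least 1 they were 3.68% and 3.51%.

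The median log2 fold change of the 6 members above 0 in both libraries was -0.037, beside -0.012 over the 17056 genes above 0 in both libraries. Of the members with an FPKM above 1 in both libraries, which were *Sp1*, *Sp2*, *Sp3*, *Sp4* and *Sp6*, the first 3 lay within the middle 50% of genes with a mean FPKM of 5 to 30 (-0.19 to 0.12). *Sp4*, at -0.22, lay just below that range. *Sp6*, at 0.28, lay above the upper quartile of 0.14 of genes that reached an FPKM of 1 in either library.

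**Figure D3:**
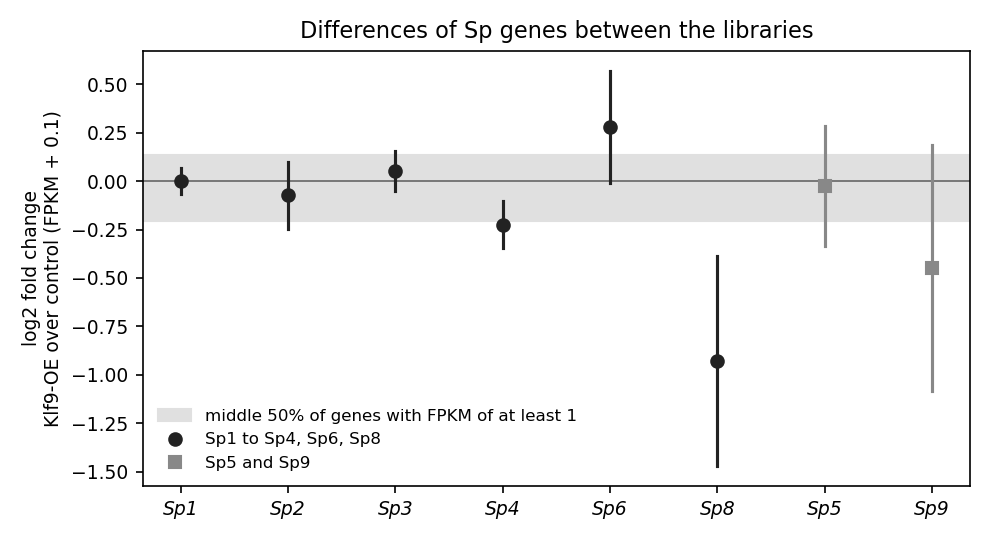
Log2 fold change of Sp genes, *Klf9*-OE over control, on the scale of log2(FPKM + 0.1), with lines for the interval made from the deposited bounds. Circles are members and squares are *Sp5* and *Sp9*. The grey band holds the middle 50% of genes with an FPKM of at least 1 in at least 1 library. The intervals of *Sp4* and *Sp8* lie below 0 and those of the other genes include 0.

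The summed level of the 7 Sp genes was 70.7 FPKM (68.6 to 72.8) in the control library and 69.6 (67.8 to 71.4) in the *Klf9*-OE library. The log2 difference of the sums was -0.023 (-0.079 to 0.034), and its sign turned when the libraries were rescaled (0.0048 with the same upper quartile and 0.039 with the same sum). *Sp1* to *Sp4* made up 97.05% of the sum in control PGCs and 96.7% in *Klf9*-OE PGCs. *Sp1* and *Sp3* alone made up 63.4% and 65.4%. The *Sp1* values in these sums may not be comparable between the libraries, since its transcript model differed. The share of *Sp4* was 11.8% in control PGCs and 10.3% in *Klf9*-OE PGCs, that of *Sp6* was 2.49% and 3.11%, and that of *Sp8* was 0.4275% and 0.160%.

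The overexpressed gene *Klf9* had an FPKM of 2.27 in control PGCs (1.97 to 2.57) and 80.8 in *Klf9*-OE PGCs (77.0 to 84.5). The *Klf9*-OE value was 35.6 times the control value. By RT-qPCR at the same MOI, the paper reported a rise larger by orders of magnitude. That measure was made after a longer culture, in PGCs from an earlier embryonic day, and the reason for the gap was not tested. In control PGCs the level of *Sp1* was 11.2 times that of *Klf9*, and the summed Sp level was 31.2 times that of *Klf9*. In *Klf9*-OE PGCs the level of *Klf9* was 3.18 times that of *Sp1* and 1.16 times the summed Sp level. The share of *Klf9* in the sum of *Klf9* and the 7 Sp genes was 3.11% in the control library and 53.7% in the *Klf9*-OE library. The *Klf9* value does not separate vector from endogenous RNA. The *Klf9* intervals imply 229.6 reads in control PGCs and 1825 in *Klf9*-OE PGCs. That rise is 0.183 times the one that the FPKM and the overall depth give, so the *Klf9* values may not be comparable between the libraries. In both libraries the *Klf9* value includes isoforms that Cufflinks assembled, and the vector carried the coding region alone. The ratios above are thus of deposited values and not of molecules or of protein.

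**Figure D4:**
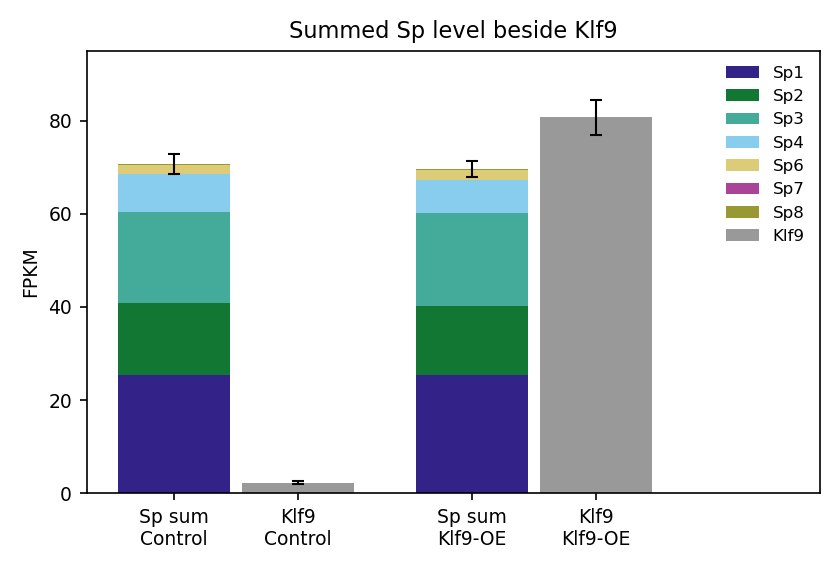
Stacked FPKM of the 7 Sp genes beside the FPKM of *Klf9* in the control and the *Klf9*-OE library, with bars from 0 and lines for 95% intervals. The Sp stacks reach 70.7 and 69.6, while *Klf9* is at 2.27 in the control library and 80.8 in the *Klf9*-OE library.

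The positions of the Sp genes follow a pattern that the choice of members did not use. *Sp1* and *Sp7* are neighbours on chromosome 15 with 40044 bases between their loci, *Sp2* and *Sp6* are neighbours on chromosome 11 with 35828 bases between them, and *Sp4* and *Sp8* lie on chromosome 12 with 544888 bases between them. *Sp3* has *Sp9*, which is no member, at 291479 bases on chromosome 2. In all 4 pairs the genes are transcribed away from each other. GENCODE M21 places 0 protein-coding genes wholly between the partners of the first 3 pairs and 1 between *Sp3* and *Sp9*. Within each pair, the gene from *Sp1* to *Sp4* was the higher. In control PGCs *Sp1* was 1455 times as high as *Sp7*, where *Sp7* rests on 1.00 read, *Sp2* was 8.77 times as high as *Sp6*, *Sp3* was 55.8 times as high as *Sp9*, and *Sp4* was 27.65 times as high as *Sp8*. In *Klf9*-OE PGCs these ratios were 6.79 for *Sp2* over *Sp6*, 88.1 for *Sp3* over *Sp9* and 64.1 for *Sp4* over *Sp8*.

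The other Sp genes in the files are *Sp5*, a target of Wnt signaling, and *Sp9*, a relative of *Sp8*. *Sp5* had an FPKM of 2.92 in control PGCs (2.44 to 3.39) and 2.86 in *Klf9*-OE PGCs (2.43 to 3.29). *Sp9* had 0.348 (0.209 to 0.487) and 0.228 (0.126 to 0.330). The intervals of both genes overlapped between the libraries. *Sp5* thus lay between *Sp4* and *Sp6* in level in each library. Of the 17 Klf genes, 3 were higher with intervals apart (*Klf9*, *Klf10* and *Klf6*) and 5 were lower (*Klf11*, *Klf5*, *Klf8*, *Klf4* and *Klf12*), beside 11.2% and 14.4% of all genes, and the median log2 fold change was -0.14. The vector carried *Klf9*, so its higher value was set by the design, and it is included in the 3 and in the median. *Klf12* was the Klf gene with a 2-fold lower level, with 1.55 (0.996 to 2.10) and 0.574 (0.458 to 0.690). The *Klf12* intervals imply more reads in the *Klf9*-OE library, by a larger factor than the overall depth, despite the lower FPKM. The *Klf12* values may thus not be comparable between the libraries.

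Genes that work with Sp factors were read from 5 lists, which held 37 genes above 0 in at least 1 library. Of these, 8 were higher and 8 were lower with intervals apart, and 1 was higher and 0 were lower by 2-fold. Beside these and the lists below, 11.2% of all genes were higher and 14.4% lower with intervals apart. Among genes that reached an FPKM of 1 in either library, these shares were 14.8% and 20.2%, and by 2-fold 3.68% and 3.51%. With a mean FPKM of 5 to 30, 35.7% of genes had intervals apart in either direction. Other zinc finger factors of GC-rich promoters had 3 of 5 genes higher and none lower, with a median log2 fold change of 0.17. In this list *Maz* had an FPKM of 50.25 in control PGCs (47.8 to 52.7) and 56.6 in *Klf9*-OE PGCs (54.1 to 59.0). *Zfp148*, also called ZBP-89 and known to bind GC-rich sites that Sp1 uses, had 8.49 (7.98 to 8.998) and 18.1 (16.4 to 19.8), and differed by 1.08 on the log2 scale. *Zbtb7a* had 2.28 (2.02 to 2.53) and 3.33 (2.90 to 3.76). For *Zfp148* and *Zbtb7a*, the intervals imply fewer reads in the *Klf9*-OE library despite the higher FPKM. The values of these genes may thus not be comparable between the libraries.

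Partners that bind beside Sp factors in promoters, such as the subunits of NF-Y, had 1 of 6 genes lower and none higher, with a median of -0.12. The lower gene was *Yy1*, with a control FPKM of 25.2 (23.6 to 26.7) and a *Klf9*-OE FPKM of 22.1 (20.8 to 23.4). Coactivators, which are subunits of TFIID and Mediator, the acetyltransferases p300 and CBP, and HCF-1, had 3 of 10 genes higher and 4 lower, with a median of 0.028. The higher genes were *Hcfc1*, *Ep300* and *Med14* (log2 fold changes 0.22, 0.13 and 0.33), and the lower genes were *Taf7*, *Med24*, *Med23* and *Crebbp* (-0.21, -0.19, -0.15 and -0.12). Both directions thus occurred within Mediator. For *Taf7*, the intervals imply more reads in the *Klf9*-OE library, by a larger factor than the overall depth, despite the lower FPKM. The *Taf7* values may thus not be comparable between the libraries. Some intervals were only just apart. Control *Ep300* ended at 27.83 and *Klf9*-OE *Ep300* began at 28.11, while control *Crebbp* began at 18.91 and *Klf9*-OE *Crebbp* ended at 18.87. Widened *Klf9*-OE intervals were applied to the members only.

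Corepressors had 1 of 6 genes higher and 2 lower, with a median of 0.013. *Hdac2*, a histone deacetylase, had a control FPKM of 246 (238 to 255) and a *Klf9*-OE FPKM of 195 (192 to 199). The *Hdac2* intervals imply more reads in the *Klf9*-OE library, by a larger factor than the overall depth, despite the lower FPKM. The *Hdac2* values may thus not be comparable between the libraries. *Sin3a*, the scaffold that KLF9 is known to bind, had 76.5 (73.0 to 80.0) and 67.2 (64.6 to 69.8). *Ncor1* was the higher gene, with 16.2 (15.5 to 16.9) and 19.3 (18.5 to 20.1). Enzymes that modify Sp proteins by O-GlcNAc, SUMO, phosphate and other groups had 1 of 10 genes higher, *Atm* (log2 fold change 0.24), and 1 lower, *Pias1*, a SUMO ligase (-0.19), with a median of 0.053.

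A list of 16 genes with well-studied GC-box promoters, among them *Tk1*, *Odc1* and *Hprt*, had 1 gene higher and 1 lower with intervals apart, and 0 with a 2-fold difference. The higher gene was *Cdkn1a*, which encodes the cell cycle inhibitor p21, with a control FPKM of 12.4 (11.3 to 13.6) and a *Klf9*-OE FPKM of 14.9 (13.7 to 16.1). The lower gene was *Tgfb1*, with 5.61 (4.95 to 6.27) and 4.41 (3.88 to 4.94). The median over the list was 0.045.

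**Figure D5:**
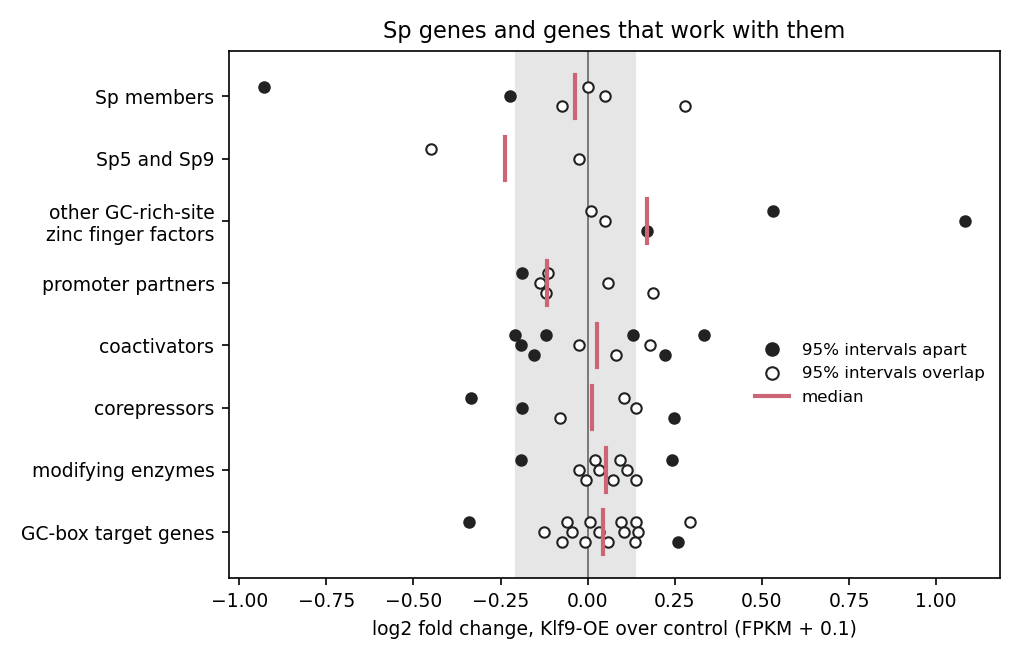
Log2 fold change, *Klf9*-OE over control, of the Sp members above 0 in both libraries and of genes in 7 further lists, 1 point per gene. Filled points have 95% intervals apart, red lines are medians, and the grey band holds the middle 50% of genes with an FPKM of at least 1 in at least 1 library. The medians run from -0.24 for *Sp5* and *Sp9* to 0.17 for the other zinc finger factors, and *Zfp148* is the point at 1.08.

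Over all promoters, genes were also grouped by their number of GC boxes, among genes above 0 in both libraries that reached an FPKM of 1 in either of them. The median log2 fold change was -0.020 for 3072 genes with 0 boxes, -0.025 for 2339 genes with 1, -0.033 for 1604 genes with 2 and -0.038 for 2053 genes with 3 or more. By intervals apart, the share of genes that were lower was 17.8% with 0 boxes, 20.95% with 1, 21.95% with 2 and 22.1% with 3 or more, and the share that were higher was 14.9%, 14.1%, 14.15% and 13.9%. By 2-fold differences the order for lower genes was the opposite. The share of genes at least 2-fold lower was 3.48% with 0 boxes and 1.07% with 3 or more, and the share at least 2-fold higher was 3.65% and 1.07%. The groups differed in level, with a median FPKM of 9.08 for 0 boxes and 13.9 for 3 or more. The part of the level in these shares was not tested.

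The cells behind the Sp values were checked against marker lists. All 10 PGC markers were present, with a summed FPKM of 1759 in control PGCs and 1480 in *Klf9*-OE PGCs. With intervals apart, 8 of them were lower and 1 was higher in *Klf9*-OE PGCs, with a median log2 fold change of -0.35. The 4 with the highest level were *Pou5f1* (-0.48), *Dazl* (0.10), *Ddx4* (-0.04) and *Dppa3* (-0.72). *Mael* was 1 of the 8 lower markers. Its intervals imply more reads in the *Klf9*-OE library, by a larger factor than the overall depth, despite the lower FPKM. The *Mael* values, which are part of the sums, may thus not be comparable between the libraries. Lower *Sp4* and *Sp8* were therefore measured in a library with lower PGC markers, and the part of this in the Sp values was not tested.

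Of 9 gonad somatic markers, 4 were higher and 1 was lower, and their summed FPKM was 25.9 in control PGCs and 33.8 in *Klf9*-OE PGCs. The lower marker was *Sox9*, with 2.04 (1.76 to 2.31) and 1.09 (0.906 to 1.27), while *Nr5a1* and *Foxl2* had log2 fold changes of -0.40 and -0.21 with intervals that overlapped. *Star*, among the higher markers, was listed at 0 in control PGCs and had an FPKM of 2.395 (2.12 to 2.67) in *Klf9*-OE PGCs. The control bounds of *Star* were also 0 and imply no read number. Whether the *Star* values, which are part of these sums, are comparable between the libraries was not tested. *Cyp17a1* was listed at 0 in *Klf9*-OE PGCs, and the 4 with the highest level were *Amh*, *Gata4*, *Inha* and *Wt1* (log2 fold changes 0.62, 0.26, 0.04 and 0.71). Of 5 endothelial markers, 2 were higher and 1 was lower, and the sum was 20.0 and 30.2, most of it from *Pecam1* (16.8 and 24.2). The *Pecam1* intervals imply fewer reads in *Klf9*-OE PGCs despite the higher FPKM, so these sums may not be comparable between the libraries. Whether *Pecam1* RNA came from endothelial cells was not tested. The other higher marker was *Cdh5* (1.995 and 5.085), and the lower marker was *Tek* (0.735 and 0.439). Of 5 blood and macrophage markers, 1 was higher and none lower, with sums of 4.21 and 5.33. Of 8 osteoblast genes related to *Sp7*, 2 were higher (*Spp1* and *Col1a1*) and 1 was lower (*Alpl*, with 26.85 and 16.2). *Alpl* encodes an alkaline phosphatase, an activity that the paper stained to find EGC colonies, so it is not read here as particular to bone. *Runx2*, the factor that acts before *Sp7* in bone, had an FPKM of 0.367 and 0.335. Of 5 limb ridge and ectoderm genes related to *Sp6* and *Sp8*, 1 was higher, *En1*, with 0.525 (0.343 to 0.707) and 1.115 (0.875 to 1.35).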

How the data were processed

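Per the labels and the methods of the paper, the authors used TopHat2 and Bowtie to map single-end reads (TruSeq RNA kit v2) onto mm10, and Cufflinks to estimate each locus. Versions of these tools are not given in the sources used here. The deposited values are FPKM with 95% bounds, which lie 2 standard errors from the value. File starts count from 0 and are printed 1-based. Loci that shared a symbol were added up (each member had 1 locus per library), and 6 symbols with a failed estimate were left out. Isoforms assembled by Cufflinks entered 3 members in each library, and the transcript model differed between libraries for 4 members. Calls were intervals that did not overlap, and 2-fold differences with a pseudocount of 0.1. No test was run, since each condition had 1 library, and the depth of the libraries is unknown. Reads were implied as the square of FPKM over its standard error. Among genes with 1 to 9 such reads, within 0.06 of a whole number, 36.5% were even in control PGCs and 89.5% in *Klf9*-OE PGCs, so the *Klf9*-OE intervals may be too narrow. A widened interval was an alternative, with other pseudocounts, scalings and folds. The members and lists were chosen with earlier results of these data known. All members, *Sp5*, *Sp9* and *Klf9* are named, as are the genes of a list with intervals apart (up to 4 per direction, the highest first) and the 4 highest markers, from which the text gives the markers it needs. *Tk1*, *Odc1*, *Hprt*, *Runx2*, *Klf12*, *Nr5a1* and *Foxl2*, genes listed at 0, *D030028A08Rik* and *Sp3os* were named after their values were seen, and the level ranges around *Sp1* to *Sp4* and *Sp8* were also set then. Calls and intervals were tested on simulated reads whose intervals matched their random spread, with the same transcript model in both libraries. That setting could not show how the calls behave where intervals are too narrow or models differ. A planned comparison of zinc fingers was not made, and 1 gene of the GC-box promoter list is not reported here and was left out of its counts and median. Calculations used Python 3.11.15, numpy 2.4.6, pandas 2.3.3 and matplotlib 3.10.9.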

Additional observations from a re-analysis of the deposited data

How the results depend on the processing

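Of 113 values recomputed under 9 alternatives, 104 moved by less than the error and 9 moved by more, and no member with intervals apart changed sign. The alternative that kept only the highest locus of a symbol could not move a value, since each member had 1 locus per library. Its values are counted among the 104 and are no check. For medians, the error was taken as 0.15 on the log2 scale. The number of members lower with intervals apart, 2 as reported, was 1 (*Sp8*) with the same sum and 1 (*Sp8*) with the same upper quartile and widened *Klf9*-OE intervals together, and 0 with the same sum and widened intervals together. These combinations were chosen after seeing the data. It stayed at 2 with widened intervals alone or the same upper quartile alone. The number of members 2-fold lower, 0 as reported, was 2 (*Sp7* and *Sp8*) with a pseudocount of 0.01 and 1 (*Sp8*) with a ratio of at least 1.5. The log2 difference of the summed Sp level was 0.039 with the same sum. The median of *Sp5* and *Sp9* was -0.077 with a pseudocount of 1, and that of the blood and macrophage markers was -0.43 with a pseudocount of 0.01. Rescaling moved all log2 fold changes by at most 0.062, which exceeds the differences of *Sp1* and *Sp3*. No paired analysis was possible because each condition had 1 library, and for the same reason no library could be left out. The few reads behind *Sp7* and *Sp8* limit what can be said of them.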

Other observations

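Cufflinks assembled transcribed loci without a gene name within 5000 bases of some Sp genes. They numbered 2 around the members in the control library and 11 in the *Klf9*-OE library, where the files hold 6482 and 15127 such loci in all. *Sp4* had 1 in each library directly before its RNA start. In control PGCs it ran from 118301568 to 118302069 on chromosome 12 and had an FPKM of 3.41 (95% interval 2.12 to 4.70). In *Klf9*-OE PGCs it ran from 118301540 to 118301992 and had an FPKM of 4.54 (3.06 to 6.025), so the intervals overlapped. The *Sp4* locus itself had a lower FPKM in *Klf9*-OE PGCs.

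*Sp3* had 1 such locus in the control library and 8 in the *Klf9*-OE library, and *Sp2* had 0 and 2. Of the 8 at *Sp3*, 3 lay within the gene, with FPKM of 2.39, 3.09 and 2.41, and 5 lay before its RNA start, where *Sp3os* is annotated. The control locus and some of these 5 had an upper bound far above the value, so their levels are not given. The other members had no such locus. The FPKM of these loci were not added to any Sp value.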
